A study of Homo sapiens with 6 samples.

Results

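A set of 8 genes of the TGF-beta and BMP pathways was followed in MDA-MB-231 cells, a human triple-negative breast cancer line, after small interfering RNAs (siRNAs) against ATM or p53. They are the inhibitory SMAD genes SMAD6 and SMAD7, the pseudoreceptor gene BAMBI, the secreted antagonist gene CHRDL1, the corepressor genes SKIL and TGIF1, the latent binding protein gene LTBP1, and JUNB, a transcription factor gene induced by TGF-beta. They are 8 of the 14884 genes named on the array. The members were picked by name with their values in these same arrays already known, so their differences between groups are given below as descriptions and without p-values. The members were part of the fit to all genes, and for them only the passing of its threshold is given. P-values are given only for other genes of the pathway and for marker genes.

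The groups were cells transfected with siATM, cells transfected with sip53 and cells transfected with the control siRNA siNC, with 2 samples each and 1 array per sample. All 6 samples come from the same cell line, received a lipid transfection reagent and had total RNA extracted with a column kit, and all were hybridised to Affymetrix Human Gene 2.0 ST arrays. Nothing in the labels tells whether the pair of samples in a group was grown apart. The p-values below therefore rest on the spread within such pairs, and that spread may be technical. As background, MDA-MB-231 carries a mutant p53, so sip53 acts on that mutant form. The transcripts of the targeted genes, and so the depth of each knockdown, are not analysed here.

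TGF-beta, activin and BMP ligands bind pairs of serine/threonine kinase receptors at the cell surface, which phosphorylate the receptor SMADs. These join SMAD4, enter the nucleus and switch genes on or off. Among the genes they switch on are the pathway's own brakes. SMAD6 and SMAD7 block receptors and recruit ubiquitin ligases to them, BAMBI resembles a receptor without a kinase, and SKIL and TGIF1 hold back SMAD-driven transcription in the nucleus. In breast cancer cells TGF-beta is known for slowing growth early and for favouring invasion later.

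The deposited values are log2 array values, 1 per probe set, and each of the 8 genes had a single probe set. A level of one gene cannot be set against a level of another on this scale, because probe sets differ in brightness. All 8 passed the limit on dim genes, a mean log2 value of 5.96 over the 6 arrays, which 10640 genes met. Differences are between mean log2 values, with the moderated standard error (SE) from a fit to all 6 arrays. Between 2 arrays of the same group the SD of the difference over those genes was 0.115 to 0.148, against 0.205 to 0.291 between arrays of different groups. All 4 named markers of a mesenchymal breast line, VIM, CD44, AXL and MSN, were above the limit, and the hormone receptor genes ESR1 and PGR were below it. The luminal keratin genes KRT8 and KRT18 and the epithelial gene EPCAM were above it too.

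Of the 8 genes, 5 lay higher after siATM than after siNC past the threshold used for all genes (limma, adjusted p below 0.05) and 1 lay lower. Over all genes tested the shares were 12.5% higher and 13% lower. Because the members were chosen with their values in these arrays known, nothing is read from their count here or from those below. After sip53, 3 lay higher and 3 lower, where 5.47% of all genes were higher and 5.11% lower. In the direct comparison of siATM with sip53, 5 lay higher and 3 lower, where the shares over all genes were 14% and 16.3%. Arrays of the groups did not overlap for any of the 8. In siATM cells against siNC cells 6 lay above and 2 below, where 31.9% of all genes lay above and 30.8% below. In sip53 cells against siNC cells 5 lay above and 3 below, where the shares were 33.1% and 25.8%. In siATM cells against sip53 cells 5 lay above and 3 below, where 31% of all genes lay above and 34.4% below, 65.4% in all.

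With 1 array left out, 6 genes were past the threshold in each fit of siATM against siNC and 6 to 8 in those of siATM against sip53. The sip53 count of 6 fell further, to 1 without sip53 replicate 1, 1 without sip53 replicate 2, 2 without siNC replicate 1 and 1 without siNC replicate 2, with CHRDL1 past the threshold in each of the 4 fits. The count over all genes was lower too in those 4 fits for sip53, and in every such fit for the contrasts with siATM. Those counts are given near the end, and nothing about the members is read from theirs. Both siRNAs were compared with the same 2 siNC arrays, so the contrasts against siNC are not independent of each other.

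**Figure D1:**
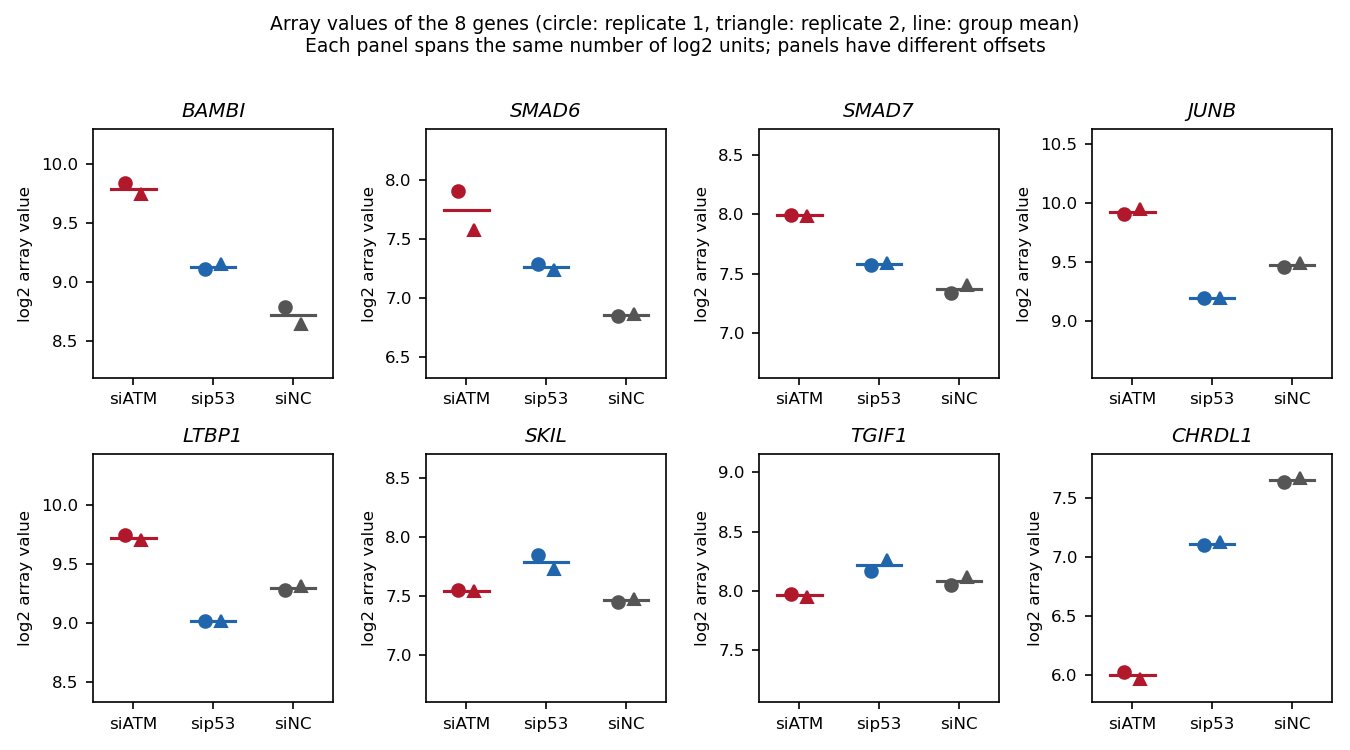
Log2 array value (vertical axis) of each of the 8 genes on the siATM, sip53 and siNC arrays, with circles for replicate 1, triangles for replicate 2 and lines for group means. Panels share their span but not their offset. BAMBI, SMAD6 and SMAD7 step down across the 3 groups, CHRDL1 steps up, and JUNB and LTBP1 are lowest with sip53.

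The 3 inhibitors that act at the receptor were higher after both siRNAs, and more so after siATM. BAMBI (probe set 16703563), whose product competes with signalling receptors, was at 9.83 and 9.74 in siATM cells, 9.11 and 9.15 in sip53 cells and 8.79 and 8.64 in siNC cells. The groups were fully apart, siATM on top, sip53 in the middle and siNC at the bottom. BAMBI was 2.10-fold higher after siATM than after siNC (log2 difference 1.07, SE 0.07) and 1.33-fold higher after sip53 (0.41, SE 0.07). It ranked number 15 from the top among all tested genes in the siATM contrast and number 207 in the sip53 contrast.

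SMAD6 (probe set 16802232), which restrains BMP receptors in particular, was at 7.91 and 7.58 in siATM cells, 7.29 and 7.24 in sip53 cells and 6.85 and 6.87 in siNC cells. The 3 groups again did not overlap, but the siATM arrays differed from each other far more than those of the other groups did. The log2 difference from siNC was 0.88 after siATM (SE 0.10; 1.84-fold) and 0.41 after sip53 (SE 0.10; 1.32-fold). Its size with siATM depended on the array. It was 0.72 without siATM replicate 1 and 1.05 without siATM replicate 2. The gap between siATM and sip53, 0.48 over all arrays, was 0.32 without siATM replicate 1.

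SMAD7 (probe set 16855127), the inhibitor of TGF-beta and BMP receptors alike, was at 8.0 and 7.98 in siATM cells, 7.57 and 7.59 in sip53 cells and 7.34 and 7.40 in siNC cells. The replicates lay within 0.10 of each other in each group, and the order of the groups was that of BAMBI and SMAD6. SMAD7 was 1.54-fold higher after siATM (log2 difference 0.62, SE 0.06) and 1.16-fold higher after sip53 (0.21, SE 0.06). The sip53 step was the smallest of the 3 inhibitors and fell short of the threshold used for all genes. It ranged from 0.18 to 0.24 over the alternatives tried.

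The promoters of these 3 genes are shown because the genes lie in the same order across the groups and because SMADs bind short, known DNA elements. Windows from 250 bases before to 50 bases after each transcription start were taken from RefSeq (GRCh38.p14), which matched all 8 genes, with 18 windows between them because several have more than 1 start. Both strands were searched. The palindromic SMAD element GTCTAGAC was found in 1 of the 18 windows, that of SMAD6, 12 bases upstream of the start, and in 0.202% of all 35116 windows. The shorter SMAD box CAGAC, which does not occur inside the palindrome, was in 13 of the 18 windows and in 45.3% of all windows. SMAD7, LTBP1 and TGIF1 each had more than 1 of those 13, so the windows are not independent and no excess is read from them. The GC-rich element GGCGCC, reported for BMP-responsive genes, was in the windows of BAMBI, where it occurs 3 times, and SKIL, and in 19.2% of all windows. The longer box CAGACA, which contains CAGAC, was in windows of LTBP1 and TGIF1 and in 16.9% of all. The AP-1 element TGAGTCA, the kind that JUNB protein binds, was in 0 of the 18 windows and in 4.95% of all. A match describes letters in a window and shows no binding. Capitals mark GGCGCC and CAGAC in BAMBI, GTCTAGAC in SMAD6 and CAGAC in SMAD7, in either orientation. Each stretch lies upstream of the start and is written 5′ to 3′ on the strand of its gene.
BAMBI, chr10:28677301-28677401, plus strand: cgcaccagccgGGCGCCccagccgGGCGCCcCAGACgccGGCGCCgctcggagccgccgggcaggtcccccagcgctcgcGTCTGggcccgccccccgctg
SMAD6, chr15:66702136-66702235, plus strand: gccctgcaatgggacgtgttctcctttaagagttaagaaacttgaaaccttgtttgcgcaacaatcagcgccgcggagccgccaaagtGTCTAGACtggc
SMAD7, chr18:48951080-48951190, minus strand: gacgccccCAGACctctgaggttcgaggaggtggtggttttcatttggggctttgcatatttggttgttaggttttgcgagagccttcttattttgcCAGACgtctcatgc

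CHRDL1 (probe set 17113346), which encodes a secreted protein that binds BMPs and keeps them from their receptors, went the opposite way. Its values were 6.03 and 5.97 in siATM cells, 7.10 and 7.13 in sip53 cells and 7.63 and 7.67 in siNC cells. The 3 groups did not overlap, and siATM was far below both others. CHRDL1 was 3.14-fold lower after siATM than after siNC (log2 difference −1.65, SE 0.06), and only 2 of the 10640 tested genes had a larger fall. After sip53 it was 1.45-fold lower (−0.54, SE 0.06). The siATM mean of 6.0 lies close to the limit of 5.96, and no detection call was used here to tell it from background.

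JUNB and LTBP1 lay on opposite sides of the control in the 2 knockdowns. JUNB (probe set 16858710), an AP-1 subunit, was at 9.90 and 9.95 in siATM cells, 9.19 and 9.19 in sip53 cells and 9.46 and 9.49 in siNC cells. Every siATM value was above and every sip53 value below those of siNC. The log2 difference from siNC was 0.45 after siATM (SE 0.06; 1.37-fold higher) and −0.28 after sip53 (SE 0.06; 1.22-fold lower).

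LTBP1 (probe set 16878947) encodes a matrix protein that holds TGF-beta in its latent form outside the cell. It was at 9.74 and 9.70 in siATM cells, 9.02 and 9.01 in sip53 cells and 9.28 and 9.32 in siNC cells, in the same order as JUNB. The log2 difference from siNC was 0.43 after siATM (SE 0.06; 1.34-fold higher) and −0.28 after sip53 (SE 0.06; 1.21-fold lower). Between the knockdowns themselves the gap was 0.73 for JUNB (1.66-fold) and 0.71 for LTBP1 (1.63-fold), wider than for SMAD6 or SMAD7.

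Of the 2 corepressor genes, SKIL lay apart from siNC mainly after sip53, and TGIF1 differed little from siNC in either knockdown. SKIL (probe set 16947904), which encodes SnoN, was at 7.55 and 7.54 in siATM cells, 7.85 and 7.73 in sip53 cells and 7.45 and 7.48 in siNC cells. It was highest with sip53, with a log2 difference of 0.33 from siNC (SE 0.06; 1.25-fold), while the siATM difference was 0.08 (SE 0.06). The siATM and siNC arrays did not overlap but lay about 1 SE apart, so their order is not beyond the error of the fit. The sip53 difference was 0.26 without sip53 replicate 1 and 0.39 without sip53 replicate 2. Between siATM and sip53 the difference was −0.24 (SE 0.06). It was past the threshold used for all genes, but not with no filter on dim genes or in every fit with 1 array left out.

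TGIF1 (probe set 16850625), a homeobox corepressor of SMAD2 and SMAD3, was at 7.97 and 7.95 in siATM cells, 8.17 and 8.26 in sip53 cells and 8.04 and 8.11 in siNC cells. The groups did not overlap, with sip53 on top and siATM at the bottom, but the steps were small. The log2 difference from siNC was −0.12 after siATM (SE 0.06) and 0.13 after sip53 (SE 0.06), about 2 SE either way. Neither difference from siNC passed the threshold used for all genes. The difference between siATM and sip53, −0.25 (SE 0.06), did pass it, but not with no filter on dim genes or in every fit with 1 array left out. Groups of arrays that do not overlap are common here: 62.7% of all tested genes had non-overlapping arrays between siATM and siNC and 58.9% between sip53 and siNC.

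**Figure D2:**
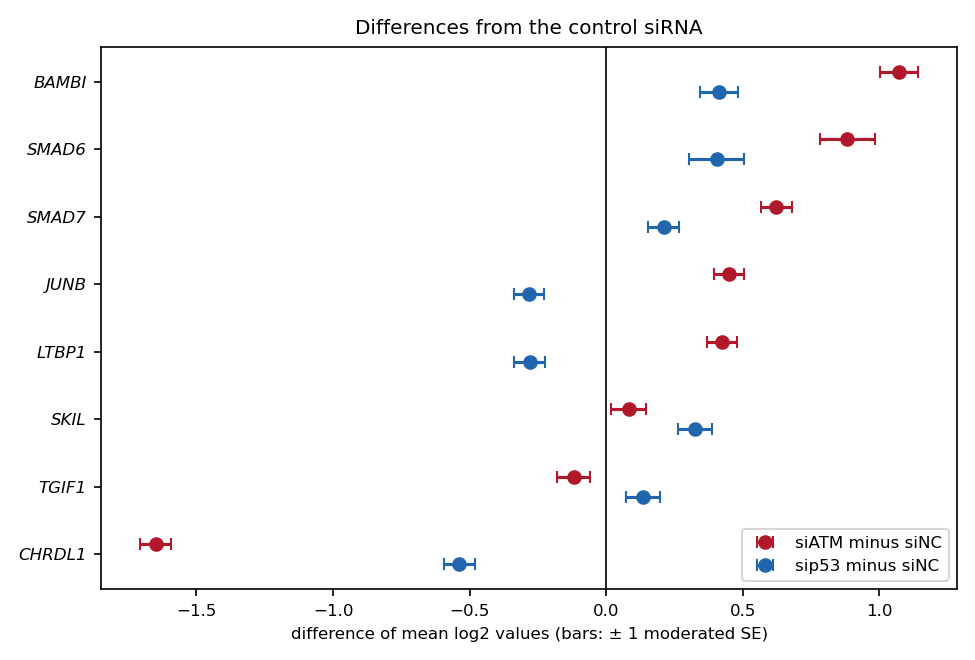
Difference of mean log2 values from siNC (horizontal axis) for each of the 8 genes, siATM in red and sip53 in blue, with bars of 1 moderated SE either way. BAMBI, SMAD6, SMAD7 and CHRDL1 lie on the same side of 0 for both siRNAs and farther out for siATM, JUNB, LTBP1 and TGIF1 lie on opposite sides, and SKIL lies farther from 0 for sip53 than for siATM.

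The direction of every one of the 24 differences (8 genes in 3 contrasts) was kept with quantile normalization and with each array centred on its median. The other alternatives could not reverse a direction. Leaving out 1 array cannot do so where the arrays of 2 groups do not overlap, and the remaining settings leave the difference itself unchanged. Over all alternatives, BAMBI after siATM ranged from 1.00 to 1.14, CHRDL1 from −1.68 to −1.62, JUNB from 0.43 to 0.48 and LTBP1 from 0.40 to 0.45. After sip53, JUNB ranged from −0.32 to −0.27 and LTBP1 from −0.31 to −0.26, the largest sizes being those with each array centred on its median.

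Proliferation genes moved with the siATM group. All 6 on the marker list (MKI67, TOP2A, CCNB1, MCM2, PCNA and TYMS) were lower after siATM than after siNC (limma, adjusted p from 0.000387 to 0.0087), and 1 of them, TYMS, was lower after sip53 (adjusted p = 0.0419). Their summed level, as log2, was 13.1 to 13.2 in siATM cells, 13.6 in both sip53 cells and 13.7 in both siNC cells. The part of this shift in the values of the 8 genes was not tested. Of markers of other cell types, CD14, the 1 haematopoietic marker named of 4, was higher after siATM (1.19) and lower after sip53 (−0.78), in a line that should hold no blood cells, and LUM, the 1 fibroblast marker named of 3, was higher after siATM (0.68) and after sip53 (0.49). PECAM1 and KDR, the 2 endothelial markers named of 3, had summed levels of 7.39 to 7.54 in siATM cells, 7.90 to 8.05 in sip53 cells and 7.78 to 7.83 in siNC cells. PECAM1 passed as lower after siATM than after siNC (limma adjusted p = 0.0113) and KDR did not. Both were lower with siATM than with sip53, PECAM1 by 0.48 (limma adjusted p = 0.00795) and KDR by 0.53 (limma adjusted p = 0.00875). The siATM values of PECAM1, 6.18 and 5.94, lie around the limit of 5.96. The part of these in the result was not tested.

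The rest of the pathway was read from a list of 123 other genes with textbook roles. The list, too, was drawn up with earlier results of these data known, so its p-values, adjusted over all genes tested, are not independent support. The annotation named 74 of them, and 66 passed the limit on dim genes. Of these 66, 11 were higher and 8 lower in siATM cells than in siNC cells, or 28.8%, against 25.5% of all tested genes (limma, adjusted p below 0.05). After sip53, 11 were higher and 5 lower, or 24.2%, against 10.6% of all genes. With each array centred on its median the sip53 split was 7 higher and 7 lower. The median log2 difference of the list was −0.05 after siATM and −0.03 after sip53, against −0.00062 and 0.01 over all genes. The share called after siATM is near that of all genes. In the fits that follow, each with 1 array left out, the count over all genes was lower too, as given near the end. The number of list genes called after siATM was 12 without siNC replicate 1 and 11 without siNC replicate 2. After sip53 it was 4 without sip53 replicate 1, 5 without sip53 replicate 2, 4 without siNC replicate 1 and 5 without siNC replicate 2.

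Among 9 ligand genes, BMP4 rose after both siRNAs. Its log2 value was 12.95 ± 0.03 in siATM cells, 13.04 ± 0.02 in sip53 cells and 12.70 ± 0.02 in siNC cells (SD, n = 2 arrays each), and the difference from siNC was 0.25 (limma adjusted p = 0.0168) and 0.34 (limma adjusted p = 0.0121). GDF5, a BMP-family ligand of cartilage and joints, fell after siATM by 0.58 (limma adjusted p = 0.00268) and had a difference of 0.14 after sip53 (limma adjusted p = 0.312). GDF15, a distant and stress-induced member of the family, was higher after siATM by 0.22 (limma adjusted p = 0.048) and fell after sip53 by 0.69 (limma adjusted p = 0.00213). The siATM call of GDF15 was lost in each of the 6 fits that dropped 1 array (highest adjusted p 0.229), and that of BMP4 without siATM replicate 1, siNC replicate 1 or siNC replicate 2 (up to 0.0900). In the sip53 contrast BMP4 lost its call without any 1 of the sip53 and siNC arrays (up to 0.0960). Of the receptors, ACVRL1 and ENG alone were tested and 0 passed in limma in any contrast (0 at an unadjusted p under 0.05), so the receptor level is hardly covered.

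Of 6 signal-carrying SMAD genes, SMAD4, the partner shared by both branches, fell after both siRNAs. It was at 10.28 ± 0.08 in siATM cells, 9.99 ± 0.05 in sip53 cells and 10.59 ± 0.05 in siNC cells (SD, n = 2 arrays each). The fall was 0.31 on the log2 scale after siATM (limma adjusted p = 0.0153) and 0.60 after sip53 (limma adjusted p = 0.00326), and the knockdowns differed by 0.29 (limma adjusted p = 0.0172). SMAD2, a receptor SMAD of the TGF-beta and activin branch, fell after siATM by 0.40 (limma adjusted p = 0.00615), while its sip53 difference was −0.11 (limma adjusted p = 0.346). SMAD1, SMAD3, SMAD5 and SMAD9 did not pass in either contrast with siNC. SMAD4 kept its sip53 call whichever array was left out and lost the siATM call without siATM replicate 2 or siNC replicate 1 (adjusted p up to 0.0895). Its difference between the knockdowns lost the call without siATM replicate 1, sip53 replicate 1 or sip53 replicate 2 (up to 0.107).

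Among 12 secreted antagonist genes besides CHRDL1, FST moved most. It encodes follistatin, which binds activins and some BMPs. FST was at 9.42 ± 0.04 in siATM cells, 9.37 ± 0.03 in sip53 cells and 8.63 ± 0.06 in siNC cells (SD, n = 2 arrays each). It was 1.73-fold higher after siATM (log2 difference 0.79, SE 0.06, limma adjusted p = 0.000405) and 1.66-fold higher after sip53 (0.73, SE 0.06, limma adjusted p = 0.00155), and kept both calls in all 6 fits with 1 array left out. The direct difference between the knockdowns was 0.05 (SE 0.06, limma adjusted p = 0.559), which does not show that they act alike.

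Other antagonists that fell after siATM were the BMP binders TWSG1 (−0.39) and BMPER (−0.38) and the activin binder FSTL3 (−0.38; limma adjusted p from 0.00403 to 0.022 over the 3). Each was also lower with siATM than with sip53 (−0.36, −0.48 and −0.32; limma adjusted p from 0.00606 to 0.00678), and these direct differences held in all 6 fits. Against siNC, the call of BMPER was lost in 3 of the 6 fits, those without siATM replicate 1, siNC replicate 1 or siNC replicate 2 (adjusted p up to 0.119). After sip53, NOG, which encodes the BMP antagonist noggin, was higher (0.25, limma adjusted p = 0.0471) and CRIM1, a membrane-bound BMP binder, lower (−0.28, limma adjusted p = 0.0202). Both lost the call without any 1 of the sip53 and siNC arrays (up to 0.206 and 0.132).

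Of 9 genes of TGF-beta latency and activation besides LTBP1, FBN1 rose after both siRNAs. It encodes fibrillin-1, the microfibril protein to which latent complexes attach. FBN1 was at 8.79 ± 0.05 in siATM cells, 8.81 ± 0.05 in sip53 cells and 8.24 ± 0.09 in siNC cells (SD, n = 2 arrays each), with differences from siNC of 0.55 (limma adjusted p = 0.00186) and 0.57 (limma adjusted p = 0.00377) that held whichever array was left out. LTBP3, a relative of LTBP1, rose after siATM by 0.35 (limma adjusted p = 0.00585) and differed between siATM and sip53 by 0.38 (limma adjusted p = 0.00318). Its sip53 difference was −0.03. THBS1, the TGF-beta activator thrombospondin-1, was higher after siATM (0.26) and after sip53 (0.23), and FURIN, a protease that cuts the TGF-beta precursor, was higher after siATM (0.25; limma adjusted p from 0.0148 to 0.0419 over these 3). All 3 calls were lost when siNC replicate 1 or 2 was dropped, with adjusted p up to 0.0883 for THBS1 after siATM, 0.195 for THBS1 after sip53 and 0.138 for FURIN. The last 2 were lost too when an array of the knockdown was dropped.

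Among 10 intracellular regulators besides the members, SMURF1, a ubiquitin ligase that SMAD7 brings to receptors, was higher after siATM (0.26, limma adjusted p = 0.0359). It was also higher with siATM than with sip53 (0.42, limma adjusted p = 0.00438), and this call held in all 6 fits with 1 array left out. After sip53, TRIM33 (0.32) and WWP1 (0.27), both ubiquitin ligases, were higher (limma adjusted p = 0.0239 and 0.0427). The siATM call of SMURF1 was lost without any 1 of the siATM and siNC arrays (adjusted p up to 0.152), and those of TRIM33 and WWP1 without any 1 of the sip53 and siNC arrays (up to 0.140 and 0.192).

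Genes that TGF-beta is known to regulate moved both ways. Of 13 tested, FN1, the matrix protein fibronectin (0.43), MYC (0.40), which TGF-beta represses in epithelial cells, and SNAI1, a repressor of epithelial genes (0.30), were higher after siATM (limma adjusted p from 0.00201 to 0.00828). IL11, a cytokine (−0.58), and CCN2, the connective tissue growth factor gene (−0.27), were lower (limma adjusted p = 0.00185 and 0.0226). FN1, MYC, SNAI1 and IL11 also differed between siATM and sip53 (0.43, 0.46, 0.43 and −0.66; limma adjusted p from 0.000785 to 0.00164), in all 6 fits with 1 array left out. Against siNC, CCN2 lost its call without any 1 of the siATM and siNC arrays (adjusted p up to 0.123), and the mean of its 2 probe sets gave −0.14 (limma adjusted p = 0.13). SNAI1 lost its call without siNC replicate 2 (0.0504).

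After sip53, the same list had SNAI2, a relative of SNAI1 (0.33), and BCL2L11, which encodes the apoptosis protein BIM (0.32), higher, and CCN2 (−0.41) and KLF10, a TGF-beta early response gene (−0.25), lower (limma adjusted p from 0.0114 to 0.0445). SNAI2, BCL2L11 and KLF10 lost their calls without any 1 of the sip53 and siNC arrays (up to 0.132, 0.117 and 0.241), and CCN2 without sip53 replicate 1 or siNC replicate 1 (up to 0.0841). Of 11 BMP target genes on the list, 7 were named and 5 were tested (MSX1, MSX2, DLX5, RUNX2 and HAMP). The annotation did not name ID1, ID2, ID3 or ID4, and ATOH8 and HEY1 were below the limit, so BMP targets are only partly covered. Of the 5 tested, 0 passed in limma after siATM (0 at an unadjusted p under 0.05). After sip53, RUNX2, a bone transcription factor (0.37, limma adjusted p = 0.0122), and HAMP, the hepcidin gene (0.23, limma adjusted p = 0.0452), were higher. RUNX2 differed between siATM and sip53 by −0.47 (limma adjusted p = 0.00164) in all 6 fits with 1 array left out, while the calls of RUNX2 and HAMP against siNC were lost without any 1 of the sip53 and siNC arrays (up to 0.0969 and 0.212).

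**Figure D3:**
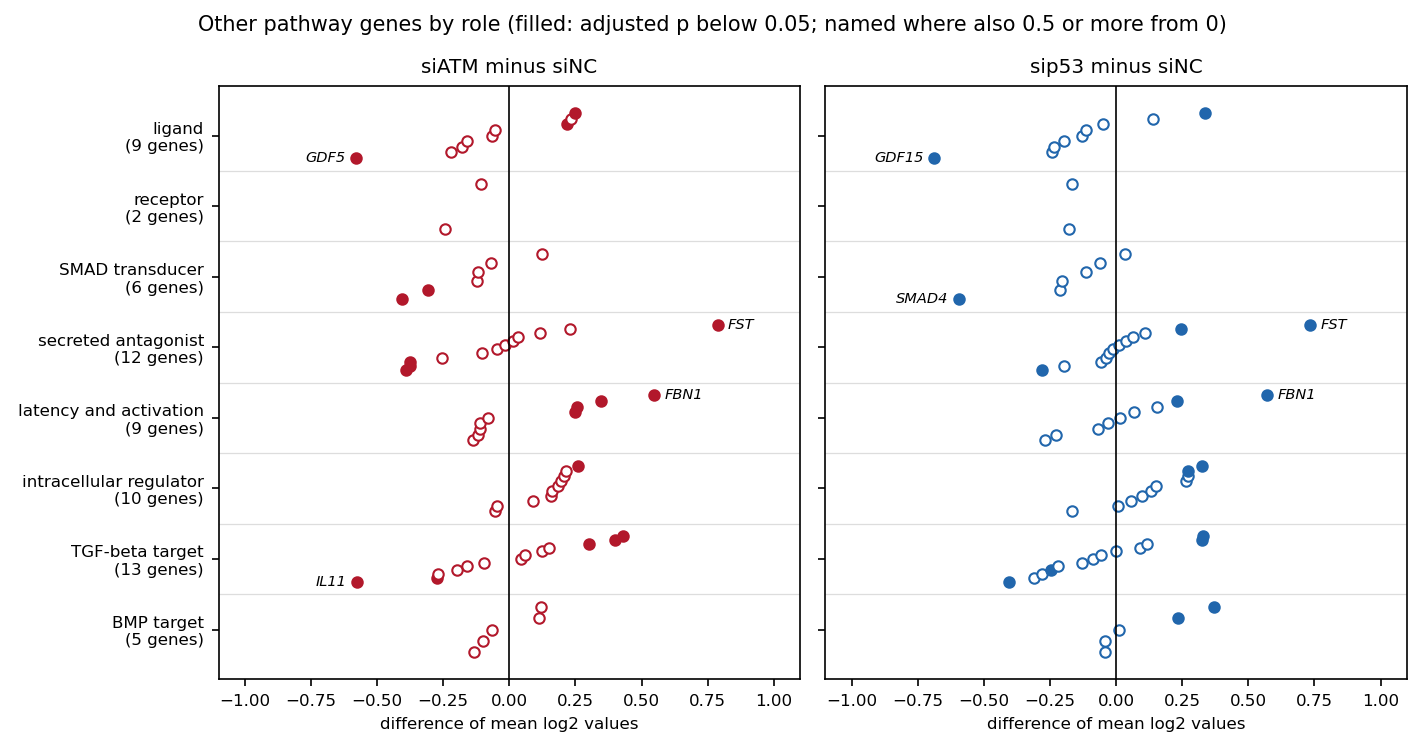
Difference of mean log2 values from siNC (horizontal axis) for the 66 other pathway genes tested, grouped by role, for siATM (left, red) and sip53 (right, blue). Filled circles passed limma at an adjusted p below 0.05, and those at least 0.5 from 0 are named. FST and FBN1 stand at the right edge of their roles in both panels.

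In the direct comparison of siATM with sip53, 10 list genes were higher and 10 lower, or 30.3%, the same share as over all genes tested (30.3%). Those not yet given were GDF15 (0.91) and GDF5 (−0.72), which held in all 6 fits with 1 array left out, and NODAL (0.47), CRIM1 (0.18), ANGPTL4 (0.24), SMAD2 (−0.29), TRIM33 (−0.23), SNAI2 (−0.27) and BCL2L11 (−0.20), each of which lost its call in at least 2 of the 6 fits (adjusted p up to 0.209). Without sip53 replicate 2 the count was 12. The mean of 2 probe sets reduced the difference of GDF5 to −0.46 (limma adjusted p = 0.00243) and that of NODAL to 0.21 (limma adjusted p = 0.149), which ended the call of NODAL.

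Other settings ended some calls of the list as well. With no filter on dim genes, GDF15, BMPER, FURIN, SMURF1 and CCN2 no longer passed after siATM, nor did NOG, CRIM1, THBS1, WWP1, TRIM33, SNAI2, KLF10, BCL2L11 and HAMP after sip53, nor CRIM1, TRIM33, ANGPTL4 and BCL2L11 in the direct comparison. With quantile normalization GDF15 and SMURF1 did not pass after siATM, nor did NOG, THBS1 and HAMP after sip53. Centring each array on its median ended the calls of GDF15 after siATM, of NOG, THBS1, WWP1 and HAMP after sip53 and of BCL2L11 in the direct comparison. Fitting only the arrays of the groups compared ended those of GDF15 after siATM and of CRIM1, TRIM33, ANGPTL4 and BCL2L11 between the knockdowns, and limma's robust, trended moderation that of BCL2L11 between the knockdowns.

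The 2 tested genes nearest in pattern to each of the 8 were found as the smallest root mean square difference between log2 values centred on their own mean over the 6 arrays. BAMBI was nearest to VASN (0.07) and AGR2 (0.09), SMAD6 to CPEB2 (0.09) and FLRT2 (0.09), and SMAD7 to HS3ST3B1 (0.03) and CPOX (0.04). JUNB was nearest to NIPAL3 (0.04) and HCFC2 (0.04), and LTBP1 to PROS1 (0.03) and SPATA20 (0.04). SKIL was nearest to BCL2L11 (0.03), which is also on the TGF-beta target list, and APEX2 (0.03), and TGIF1 to NSDHL (0.01) and MARVELD1 (0.02). CHRDL1 was nearest to ANXA8 (0.13) and ANXA8L1 (0.15), near-identical genes whose probe sets are not independent. With 6 arrays in 3 groups such likeness is a description.

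**Figure D4:**
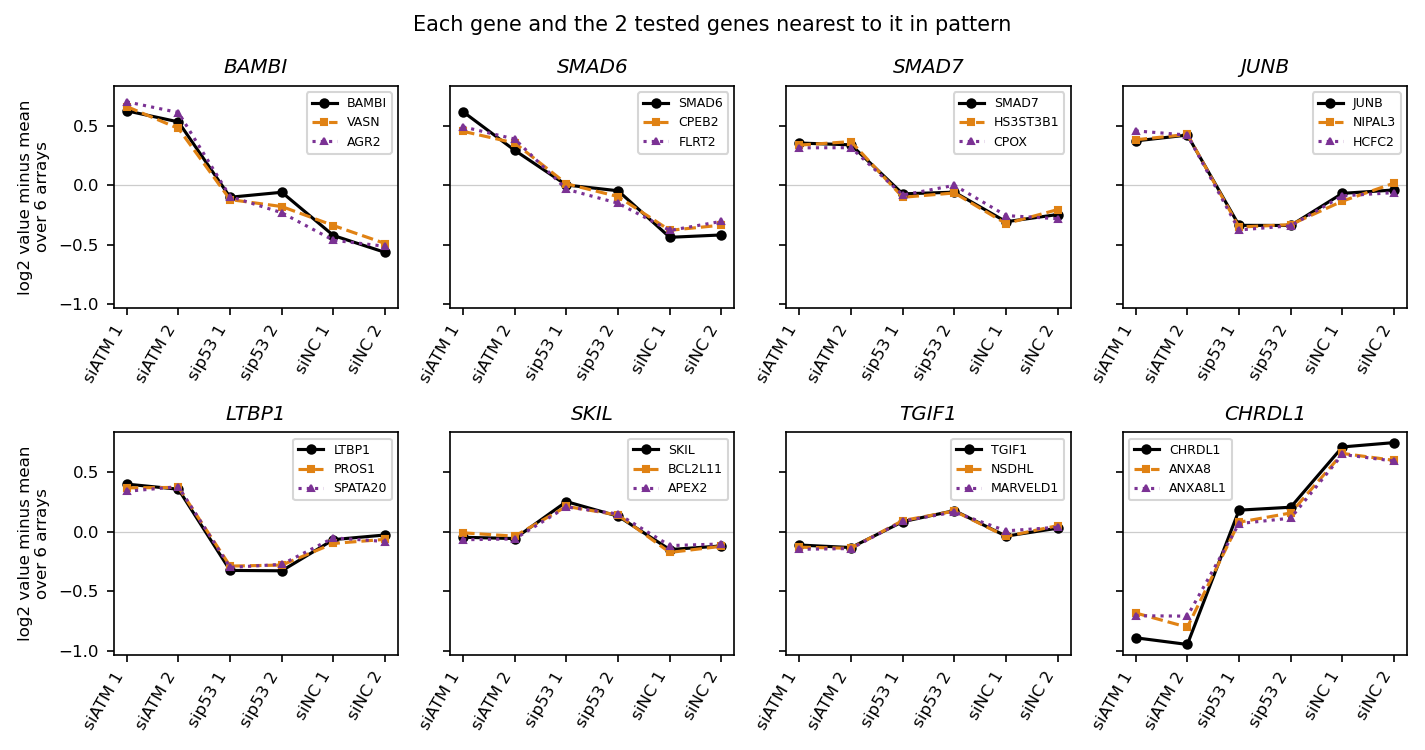
Log2 value minus its mean over the 6 arrays (vertical axis) on each array for each of the 8 genes (black circles) and the 2 tested genes nearest to it in pattern (orange squares, purple triangles). The lines for SMAD7, JUNB, LTBP1 and TGIF1 nearly coincide with those of their nearest genes, and CHRDL1 reaches lower with siATM than ANXA8 and ANXA8L1 do.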

How the data were processed

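RNA of 6 samples (2 each of siATM, sip53 and siNC) was measured on 1 array per sample, and the deposited table holds log2 values for 53617 probe sets. The steps from scan to value (background, summary, normalization) are not given in the sources used here. A log2 scale was read from the values (1.33 to 14.2, array medians 5.95 to 5.98). Scanner files were not used here, so detection and batch were not tested. Precision is limited by having 2 arrays a group.

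GEO's platform annotation named 16098 probe sets with 1 symbol, 0 with several, and left 37519 unnamed. For 779 genes with several probe sets the one with the highest mean was used. Genes whose mean reached 5.96, the median over probe sets, were tested with limma (version 3.58.1, R 4.3.3) in 1 fit of 3 group means, with 3 residual and 7.29 total degrees of freedom, two-sided, with Benjamini-Hochberg adjustment over 10640 genes per contrast. The script was tested on simulated data. Alternatives were no filter, a filter at the 70th percentile, quantile normalization, median centring, the mean of all probe sets, trend with robust moderation, a replicate block, a fit of 2 groups, and leaving out each array.

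The members, the pathway list and the naming rule were chosen with earlier results of these data known. The rule named every member, every called pathway gene where a role held 5 or fewer in a direction, and the 2 genes nearest in pattern to each member, leaving out non-coding and uncharacterised symbols. The transcripts targeted by the siRNAs are not reported here.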

Additional observations from a re-analysis of the deposited data

Results flagged for a closer look

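Among the 8 members and the 66 list genes tested, 12 genes lay on opposite sides of the control in the 2 knockdowns. Both arrays of one knockdown were above, and both of the other below, the 2 siNC arrays. How many of all tested genes lie this way was not counted, so nothing is read from the number. Arrays that do not overlap those of siNC are common, at 62.7% of all tested genes after siATM and 58.9% after sip53. Some gaps were small: STRAP lay −0.05 and 0.06 from siNC after siATM and sip53, and MYC −0.06 and ANGPTL4 −0.09 after sip53. Of the 12 genes, 3 are members of the set described above. No p-value is given for their difference between the knockdowns, because they were chosen with it known. JUNB differed between siATM and sip53 by 0.73 on the log2 scale, LTBP1 by 0.71 and TGIF1 by −0.25. The other 9 are genes of the pathway list. Lying on opposite sides of siNC already sets the knockdowns apart, so their differences are given here as values only. The adjusted p-values and calls given above for the direct comparison are therefore no separate support for this pattern. The difference was 0.91 for GDF15, −0.72 for GDF5, 0.47 for NODAL, 0.42 for SMURF1, −0.11 for STRAP, 0.43 for SNAI1, 0.24 for ANGPTL4, 0.46 for MYC and −0.47 for RUNX2. With the mean of 2 probe sets it was −0.46 for GDF5 and 0.21 for NODAL. Groups of 2 arrays are too small for a test of single outlying samples.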

How the results depend on the processing

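The count of all genes called after siATM (2708) ranged from 1437 to 2226 with 1 array left out (1437 without siNC replicate 1 and 1489 without siNC replicate 2), that after sip53 (1126) from 272 to 1242 (289 and 272 without sip53 replicates 1 and 2, 311 and 329 without siNC replicates 1 and 2), and that of siATM against sip53 (3219) from 1842 to 2852 (1842 and 1884 without sip53 replicates 1 and 2). After sip53 the count was 481 with no filter and 1742 when limma's robust, trended moderation was used, and with arrays centred on their median the split was 410 higher and 668 lower, against 582 and 544. The pathway list gave 11 to 18 calls after siATM (19 with all arrays), 4 to 18 after sip53 (16) and 12 to 16 in the direct contrast (20) with 1 array left out, and 7 after sip53 with no filter. Of the 8 members, 1 to 6 were past the threshold after sip53 with 1 array left out, and 2 (BAMBI and CHRDL1) with no filter. These counts of members under alternatives were added after seeing the data.

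With the replicate block the counts of all genes were 2696, 1001 and 3218, those of the list 20, 14 and 19, and those of members 6, 6 and 8. The block ended the calls of NOG, THBS1, KLF10 and HAMP after sip53 and of CRIM1 and BCL2L11 in the direct contrast. The correlation of replicate differences was 0.12 between siATM and sip53, 0.04 between siATM and siNC and 0.03 between sip53 and siNC. Little of the difference between replicates was thus shared by the groups. Whether samples with the same replicate number were handled together is not told by the labels, and these values cannot settle it. Of the called list genes, 10 of 19 after siATM, 4 of 16 after sip53 and 12 of 20 in the direct contrast kept their call in all 6 fits with 1 array left out. The alternative of another probe set per member could not be run, as each has 1, and CHRDL1 was not tested at the 70th percentile.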

Other observations

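VASN and AGR2, the genes nearest in pattern to BAMBI, were outside the pathway list and were looked at after that ranking was seen, so no test is given. VASN, which encodes vasorin, a membrane protein known to bind TGF-beta, differed from siNC by 0.98 on the log2 scale after siATM and by 0.26 after sip53. AGR2, a secretory epithelial gene, differed by 1.14 and 0.32.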
